A study of Mus musculus with 6 samples.

Results

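The genes described here encode the mitochondrial respiratory chain and ATP synthase, measured in the prospective lens tissue of mouse embryos with and without Pax6. They were chosen by symbol alone: every probe whose gene symbol in the platform annotation starts with Nduf, Uqcr or Atp5, starts with Cox4, Cox5, Cox6, Cox7 or Cox8, or is Sdha, Sdhb, Sdhc, Sdhd or Cycs. The rule found 85 of the 17711 named genes on the array, with 127 of its 46632 probes, and used no measured value. No probe with the symbol Cycs was among them, so cytochrome c is not analysed here, and neither are chain subunits made from mitochondrial DNA.

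The respiratory chain sits in the inner mitochondrial membrane. Complex I takes electrons from NADH and complex II from succinate, ubiquinone carries them to complex III, cytochrome c carries them on to complex IV, and complex IV passes them to oxygen. Complexes I, III and IV pump protons, and ATP synthase (complex V) uses their return to make ATP. All members described here are made from nuclear genes, and the promoters of many such genes are known to bind the factors NRF1, GABP (an ETS factor) and YY1.

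RNA came from 3 wild-type and 3 Pax6-/- embryos at embryonic day E10.25, all on a mixed background of FVB and 129 mice. Tissue was laser-microdissected from frozen sections, the lens placode in wild-type embryos and the surface ectoderm in Pax6-/- embryos, and the 2 prospective lens areas of an embryo were read on 1 Illumina bead array. From 15 ng of total RNA per embryo, cDNA was amplified before labelling with biotin. The Pax6 allele is not described in the labels, and no Cre or transgene is named. In such bulk tissue, fewer cells of a type and less RNA per cell cannot be told apart.

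Values are normalised log2 intensities, 1 per array, listed in the order of replicates 1, 2 and 3. A change is Pax6-/- minus wild type on that log2 scale, ± its standard error (SE) in limma. Probes were kept when 3 or more arrays had them above background, meaning a detection p under 0.05, and each gene was tested on its brightest kept probe. Genes were called at an adjusted p under 0.05, with the Benjamini-Hochberg method run across all 13805 genes or unnamed probes tested.

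The arrays had 35.0% to 40.2% of their probes above background, and 91 to 106 of the 127 chain probes. Pax6 itself read 10.54, 10.19 and 10.73 in the wild type and 9.81, 9.95 and 10.13 in Pax6-/- tissue, which shows nothing about an allele whose altered part is unknown. All 9 tested lens placode markers, Pax6 among them, were lower in Pax6-/- tissue, and Maf, Pitx3 and Foxe3 were above background on no Pax6-/- array. Of 11 surface ectoderm markers 10 were tested, 5 with lower and 5 with higher values in Pax6-/- tissue, and 9 were above background on every array. Their mean level ran from 8.005 to 8.48 on wild-type arrays and from 8.37 to 9.02 on Pax6-/- arrays. Grhl3 was above background on no wild-type and on all 3 Pax6-/- arrays (at least 3.15-fold higher, limma adjusted p = 0.204). Tfap2b had a change of 1.61 ± 0.24 and Epcam -0.80 ± 0.21, both without overlap of the genotypes (limma adjusted p of 0.117 and 0.308), and Krt14 was not tested. Markers of other tissues were present as well. The mean level of 6 tested red blood cell genes ran from 5.93 to 7.82 on wild-type arrays and from 8.61 to 8.87 on Pax6-/- arrays, with all 6 higher. The same mean ran from 6.54 to 7.01 and from 7.15 to 7.94 for 9 mesenchyme and neural crest genes. Of these, 7 were higher and 2 lower, with changes from -3.81 to 3.14. For 5 optic cup genes the mean ran from 5.85 to 6.06 and from 6.56 to 7.13, with 4 higher and 1 lower. For 4 endothelial genes it ran from 6.02 to 6.24 and from 6.72 to 7.46, with 4 higher. Twist2 was above background on no wild-type array. What these lists contribute to the chain genes' values was not tested.

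Most chain genes were above background in the tissue of both genotypes. Of the 85 genes, 69 had a probe above background on all 6 arrays, 13 on some and 3 on none. The share with all 6 arrays was 5 of 6 for core subunits of complex I, 23 of 26 for its accessory subunits and 5 of 8 for its assembly factors. It was 4 of 4 for complex II, 6 of 7 for complex III, 11 of 18 for complex IV and 15 of 16 for complex V. Here Ndufa4, named for complex I but known as a subunit of complex IV, is counted with complex IV. In all, 77 genes passed the detection filter and were tested. Over these the wild-type means ran from 5.31 to 12.16, with class medians from 6.98 for complex I assembly factors to 10.04 for complex V. Probes differ in how strongly they bind, so levels are not ranked between genes. The probe used was detected on all 6 arrays for 69 of the tested chain genes (89.6%), against 64.8% of all genes tested. No member was above background on every array of a genotype and on none of the other.

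The genes that were not tested were mostly isoforms of complex IV known from other tissues. Cox6a2, Cox7a1 and Cox8b encode the forms of striated muscle and brown fat, and Cox6b2, Cox7b2 and Cox8c forms of the testis. Cox6a2 and Cox8b were above background on no array. Cox7a1 was above background on Pax6-/- array 1 alone, at 5.88 against 4.78 to 4.89 on the other 5. Cox8c was so on Pax6-/- array 3 alone, at 7.04 against 4.83 to 5.03 elsewhere, and Cox6b2 and Cox7b2 on 1 wild-type array each. The remaining 2 untested genes were the assembly factor genes Ndufaf6, on no array, and Ndufaf7, on 1. By contrast the general isoforms were measured on all 6 arrays: Cox4i1, Cox6a1, Cox6b1, Cox7a2 and Cox8a. Cox4i2, an isoform known for its response to low oxygen, was above background on 1 wild-type and 2 Pax6-/- arrays, and its change was 0.10 ± 0.42.

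No respiratory chain gene passed the threshold in the comparison of Pax6-/- with wild type. The count was 0 of 77 in limma, where 12 genes or 0.0869% of all passed, and the lowest adjusted p of a member was 0.188. At an unadjusted limma p of 0.05 there were 7 members (9.09%), against 8.95% of all genes. That count rested on single arrays. It was 3 (3.90%, against 8.08% of all genes) without wild-type array 2, 3 (3.90% against 8.42%) without Pax6-/- array 3 and 4 (5.19% against 7.88%) without wild-type array 1. With arrays scaled to a common median it was 11 (14.3% against 10.5%). Of the 7, 6 were lower in Pax6-/- tissue, where 4.7% of all genes were lower, and 1 was higher, where 4.24% were. The arrays of the genotypes did not overlap in 10 members (13.0%), against 15.3% of all genes. Of the 10, 9 were lower and 1 was higher, beside 6.81% and 8.52% of all genes.

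The changes were small for most members. In 56 of 77 (72.7%) the change was under 0.5 in either direction, against 60.9% of all genes. In 69 (89.6%) it was under 1, against 84.0%. The 95% interval of the change lay inside -1 to 1, which is a doubling or halving, in 31 of 77 members (40.3%), against 27.3% of all genes. The order depended on level, with a limit of 9 set after the values were seen. At a mean level of 9 or more the share was 74.3% of 35 members against 50.6% of all genes, and below it 11.9% of 42 members against 23.0%. For the other 46 members a doubling or halving was not excluded at this number of arrays. The median size of the change also depended on level. At 9 or more it was 0.178 in members against 0.255 in all genes, and below 9 it was 0.449 against 0.395. The median change was -0.09 over the members and 0.07 over all genes, with 44 members (57.1%) below 0 against 44.0% of all genes. Members' medians per array ran from -0.02 to 0.15 in the wild type and from -0.11 to 0.06 in Pax6-/- tissue, around each gene's mean over the 6 arrays, so the genotypes overlapped. With arrays scaled to a common median the median change was -0.38 with 63 of 77 members below 0, while the median of all genes moved to -0.20.

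**Figure D1:**
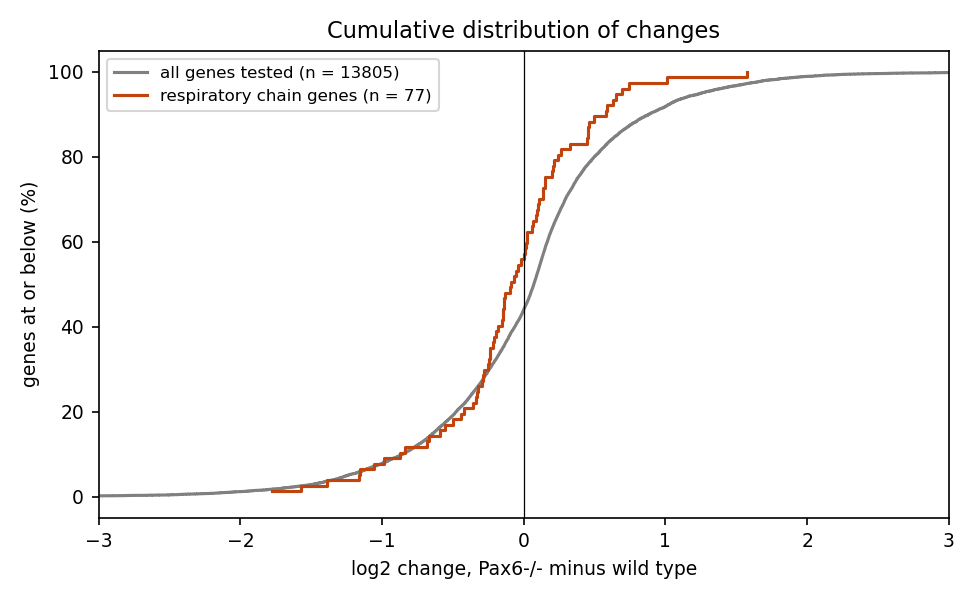
Cumulative share of genes (vertical axis, %) at or below a given log2 change of Pax6-/- minus wild type (horizontal axis, drawn from -3 to 3), for all 13805 genes tested in grey and the 77 tested respiratory chain genes in orange. The orange line lies left of the grey around 0 (medians -0.09 and 0.07) and is steeper, with 72.7% of its genes within 0.5 of 0 against 60.9%.

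Complex I, the entry point of electrons from NADH, had 32 tested subunits. The 6 core subunits, which carry the flavin and most iron-sulphur clusters, had a median change of 0.23. Of the 6, 2 (33.3%) were below 0, against 44.0% of all genes, and none had an unadjusted p under 0.05. Ndufv1, which holds the flavin and binds NADH, read 9.29, 7.53 and 8.58 in the wild type and 9.90, 9.76 and 8.77 in Pax6-/- tissue. Only wild-type array 1 reached into the Pax6-/- range, and the change of 1.01 ± 0.55 did not pass (limma adjusted p = 0.680). The iron-sulphur subunit genes Ndufs1 and Ndufs7 had changes of 0.45 ± 0.37 and 0.46 ± 0.45. Ndufv2 differed least, at 0.01 ± 0.25.

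The 26 accessory subunits of complex I, which surround the core and are needed to build or stabilise it, included Ndufa1, the member with the lowest p. Their median change was -0.05, with 15 (57.7%) below 0, against 44.0% of all genes. At an unadjusted p of 0.05, 4 of the 26 (15.4%) were lower, beside 4.7% of all genes. Ndufa1, a membrane-arm subunit encoded on the X chromosome, read 11.37, 11.26 and 10.60 in the wild type and 9.72, 9.17 and 9.61 in Pax6-/- tissue. Every Pax6-/- array was below every wild-type array. Its change of -1.58 ± 0.31, 33.6% of the wild-type level, had a limma adjusted p = 0.188 and so did not pass. Ndufa3 read 9.10, 9.92 and 9.81 against 8.87, 8.37 and 8.11, again without overlap. Its change was -1.16 ± 0.34 (limma adjusted p = 0.369). Ndufb3, a further membrane-arm subunit, read 8.48, 9.30 and 7.65 against 6.77, 7.05 and 7.46. The lowest wild-type array lay just above the highest Pax6-/- array, and the change was -1.39 ± 0.47 (limma adjusted p = 0.454).

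Ndufb10, Ndufa9 and Ndufs5 came next in that class by p and are named because of it, after their values were seen. Ndufb10 read 9.35, 9.60 and 9.26 against 8.84, 8.998 and 8.59, with a change of -0.59 ± 0.23. Ndufa9 had a change of -0.87 ± 0.38 without overlap of the genotypes. Ndufs5 had -1.16 ± 0.54, with Pax6-/- array 2 inside the wild-type range and 1 Pax6-/- array not above background. None passed in limma (adjusted p of 0.540, 0.599 and 0.616).

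Other accessory subunits read nearly the same on all 6 arrays. Ndufab1, the mitochondrial acyl carrier protein that is also a complex I subunit, ran from 10.67 to 10.91 with a change of 0.06 ± 0.21. Ndufa13 ran from 9.85 to 10.16 and changed by -0.04 ± 0.21. Their 95% intervals were -0.45 to 0.56 and -0.56 to 0.48.

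Among 6 tested assembly factors, which help to build complex I and are not part of it, Ndufaf8 was the 1 member that was higher at an unadjusted p of 0.05. It read 6.08, 6.72 and 7.76 in the wild type and 8.59, 7.95 and 8.76 in Pax6-/- tissue, without overlap. The change of 1.58 ± 0.49 did not pass (limma adjusted p = 0.403). A second Ndufaf8 probe was above background on no array, at 4.85 to 5.05. Ndufaf5, the partner protein of Ndufaf8 in human cells, changed by -0.14 ± 0.51 on the probe used and by -0.37 ± 0.38 on its second probe. Ndufaf1 had -1.06 ± 0.59 with 2 Pax6-/- arrays above background, and Ndufaf3 had 0.75 ± 0.63. The 6 factors split evenly, with 3 below and 3 above 0.

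**Figure D2:**
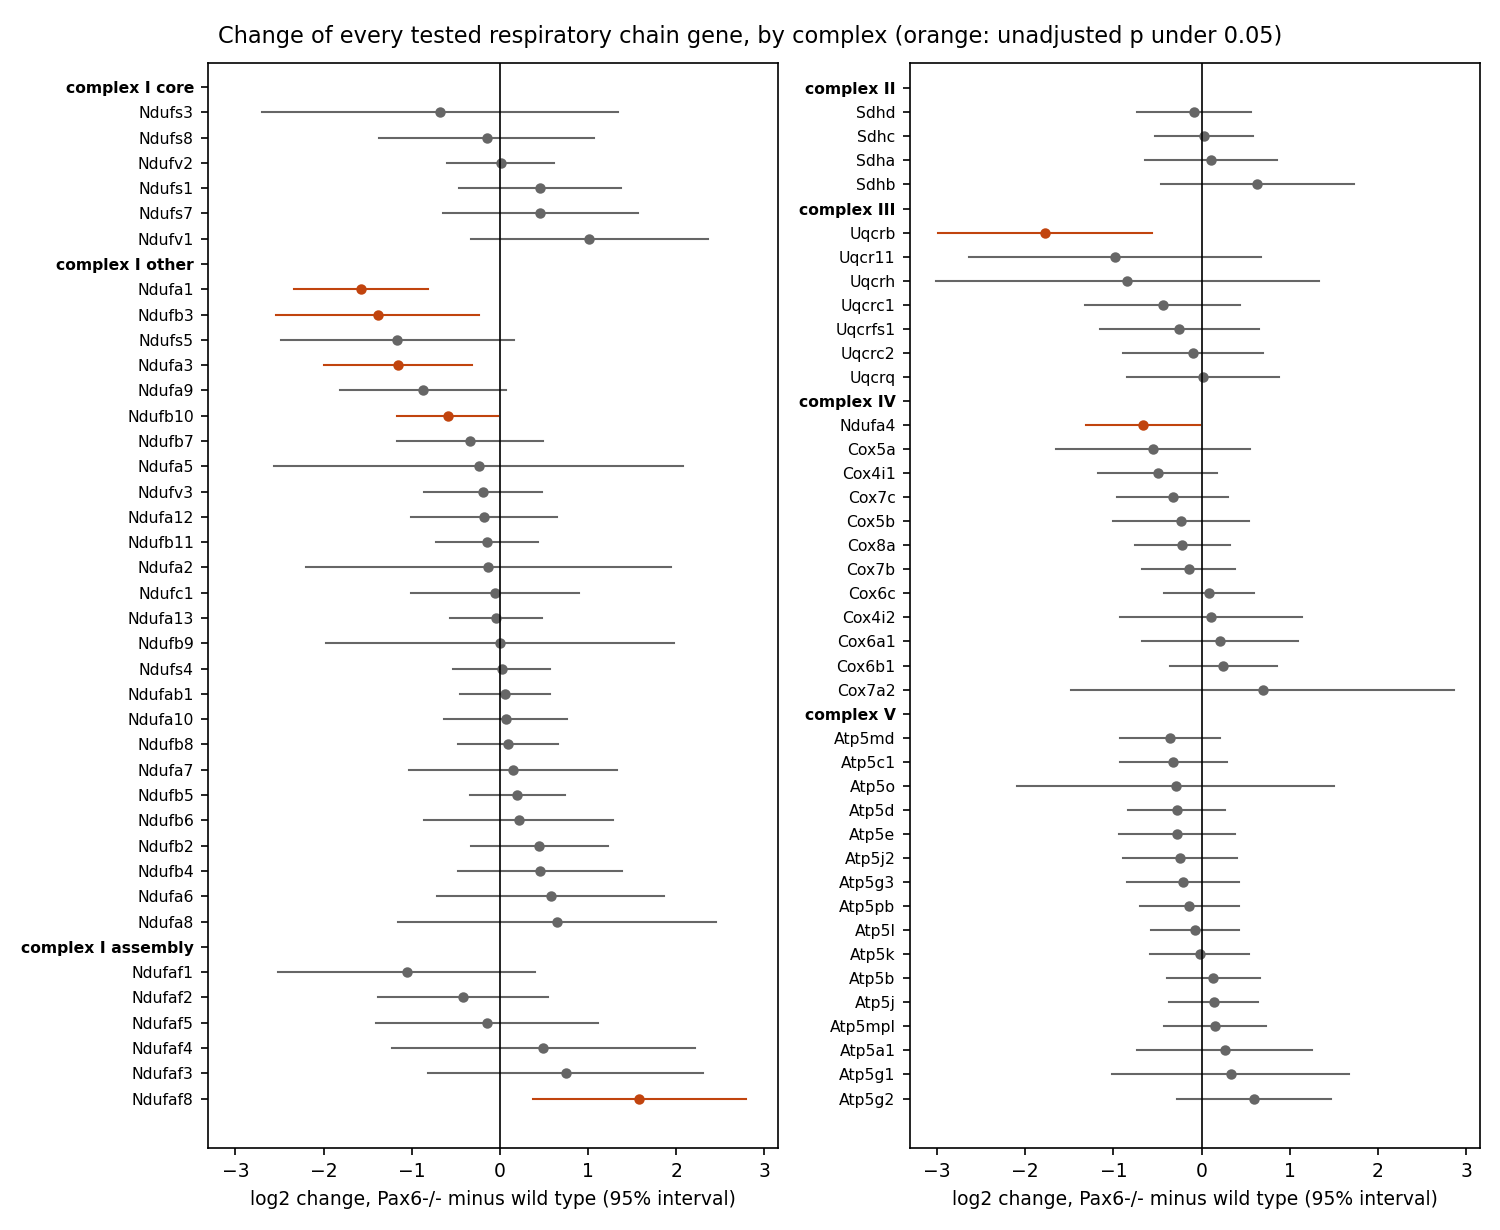
Log2 change of Pax6-/- minus wild type (points) with its 95% interval in limma (lines) for each of the 77 tested genes, grouped by complex, with the 7 genes at an unadjusted p of 0.05 in orange. Of the 7, 6 lie left of 0 and Ndufaf8 lies right of it, and the widest intervals, as of Uqcrh and Ndufa5, span from below -2 to above 1.

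Complex II is succinate dehydrogenase, the only complex of the chain that also works in the citric acid cycle. Its 4 genes had changes from -0.09 to 0.63 with no gene at an unadjusted p of 0.05. Sdha, the flavoprotein, read 8.52, 8.39 and 9.11 against 8.59, 9.14 and 8.62, and its change was 0.11 ± 0.31. The membrane anchor genes Sdhc and Sdhd had 0.02 ± 0.23 and -0.09 ± 0.27. Sdhb, the iron-sulphur subunit, depended on the probe. It had 0.63 ± 0.45 on the probe used and -1.65 ± 0.79 on the other, which averaged 7.06 in the wild type and 5.42 in Pax6-/- tissue and was detected on 2 Pax6-/- arrays.

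Complex III passes electrons from ubiquinol to cytochrome c. Of its 7 tested genes 6 (85.7%, against 44.0% of all genes) had negative changes, from -1.78 to -0.10, and Uqcrq had 0.02 ± 0.35. Uqcrb, which encodes a small subunit near the ubiquinone site, read 8.33, 7.43 and 6.89 in the wild type and 6.49, 5.43 and 5.40 in Pax6-/- tissue. It had the lowest change of all members, -1.78 ± 0.50 or 29.2% of the wild-type level, and did not pass (limma adjusted p = 0.334). Uqcr11 and Uqcrh, a pair of further small subunits, had -0.98 ± 0.67 and -0.84 ± 0.88 with overlap of the genotypes. Uqcrh on wild-type array 3 was at 5.44, below all 3 Pax6-/- arrays. The core protein gene Uqcrc1 had -0.44 ± 0.36 and Uqcrfs1, the Rieske iron-sulphur protein, -0.26 ± 0.37. The median deviation of the 7 genes was 0.67, 0.49 and -0.06 on the wild-type arrays and -0.37, -0.25 and -0.22 on the Pax6-/- arrays. The median change of -0.44 in complex III was the lowest of the classes, a description of 7 genes with a median wild-type level of 7.61. Of the 7, 1 (14.3%) was lower at an unadjusted p under 0.05, beside 4.7% of all genes.

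Complex IV, cytochrome c oxidase, had 12 tested genes with a median change of -0.18. Of these, 7 (58.3%) were below 0, against 44.0% of all genes. Ndufa4 was the 1 (8.33%) at an unadjusted p of 0.05, against 8.95% of all genes. It read 11.14, 10.71 and 10.60 against 10.247, 10.32 and 9.89, without overlap, and its change of -0.67 ± 0.26 did not pass (limma adjusted p = 0.540). Cox4i1, the large regulatory subunit, read 10.07, 10.57 and 9.89 against 9.46, 9.77 and 9.80, also without overlap, at -0.50 ± 0.27 (limma adjusted p = 0.685). Cox5a had -0.56 ± 0.45 and Cox7c -0.33 ± 0.26, with the same size on its second probe (-0.32 ± 0.27). The isoform genes Cox6a1, Cox6b1 and Cox8a had 0.21 ± 0.36, 0.24 ± 0.25 and -0.22 ± 0.22. Cox6b1 had -0.19 ± 0.45 on its second probe, and Cox5b -0.23 ± 0.31 and 0.20 ± 0.43 on its probes. Cox7a2 varied most in this class, from 5.12 to 8.41 over the 6 arrays, with a change of 0.69 ± 0.88. Cox6c stayed within 11.78 to 12.06 (0.09 ± 0.21).

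**Figure D3:**
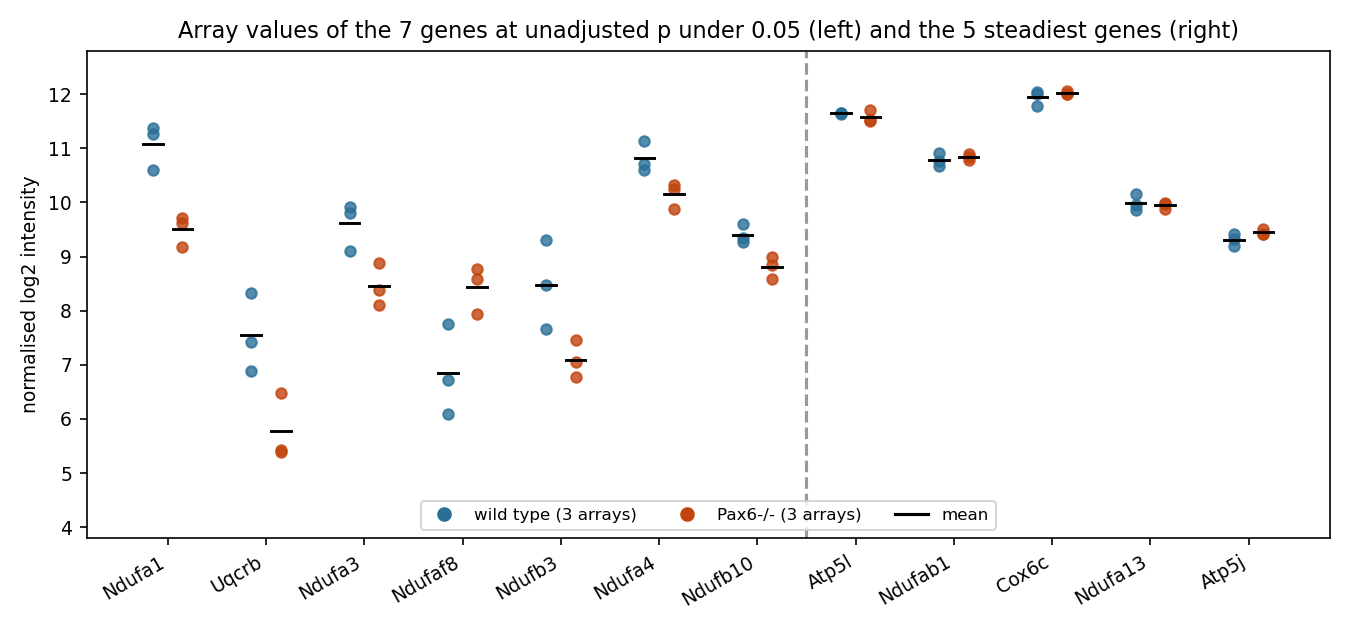
Normalised log2 intensity (vertical axis) on the 3 wild-type arrays in blue and the 3 Pax6-/- arrays in orange, with the mean of each genotype as a bar, for the 7 genes at an unadjusted p of 0.05 (left of the dashed line) and the 5 with the smallest range over the 6 arrays (right). The genotypes do not overlap in any of the 7, while each of the 5 on the right stays within 0.31 log2 over all 6 arrays.

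ATP synthase had the lowest median SD between arrays of a genotype among the classes, 0.21. All 16 of its genes were tested, and 10 (62.5%) had changes below 0, against 44.0% of all genes. All changes lay between -0.36 and 0.59, with none at an unadjusted p of 0.05. The 95% interval lay inside -1 to 1 in 12 of the 16. Atp5b, the catalytic beta subunit, read 11.05, 10.95 and 11.08 in the wild type and 11.01, 11.11 and 11.36 in Pax6-/- tissue, a change of 0.13 ± 0.22 with an interval from -0.40 to 0.66. The alpha subunit gene Atp5a1 had 0.26 ± 0.40 on the probe used and -1.09 ± 0.999 on a dimmer probe. For the gamma subunit gene Atp5c1 and for Atp5md, a small membrane subunit, the changes were -0.32 ± 0.25 and -0.36 ± 0.23. Atp5d, the delta subunit gene, was the 1 in the class without overlap of the genotypes (8.87, 8.84 and 9.01 against 8.39, 8.71 and 8.77, a change of -0.28 ± 0.22). Atp5g1, Atp5g2 and Atp5g3 encode the same mature c subunit of the rotor, and they had 0.33 ± 0.55, 0.59 ± 0.36 and -0.21 ± 0.26. Atp5g2 read 8.63, 8.77 and 7.81 against 8.59, 9.23 and 9.16, where Pax6-/- array 1 lay inside the wild-type range. Atp5pb and Atp5j, both of the peripheral stalk, had -0.14 ± 0.23 and 0.14 ± 0.21, and their dimmer probes had the opposite sign (0.65 and 0.27 for Atp5pb, -0.08 for Atp5j).

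The 7 genes at an unadjusted p of 0.05 each rest on 1 kept probe. Several probes were kept for 19 members, and their changes had the same sign in 9 genes and opposite signs in 10. Besides those already given, Ndufc1, Ndufs4, Ndufv2 and Ndufv3 differed, each with changes of at most 0.47 in size. The direction of such small changes was thus not fixed by the array. Neither was that of the larger ones in Sdhb (0.63 and -1.65) and Atp5a1 (0.26 and -1.09).

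**Figure D4:**
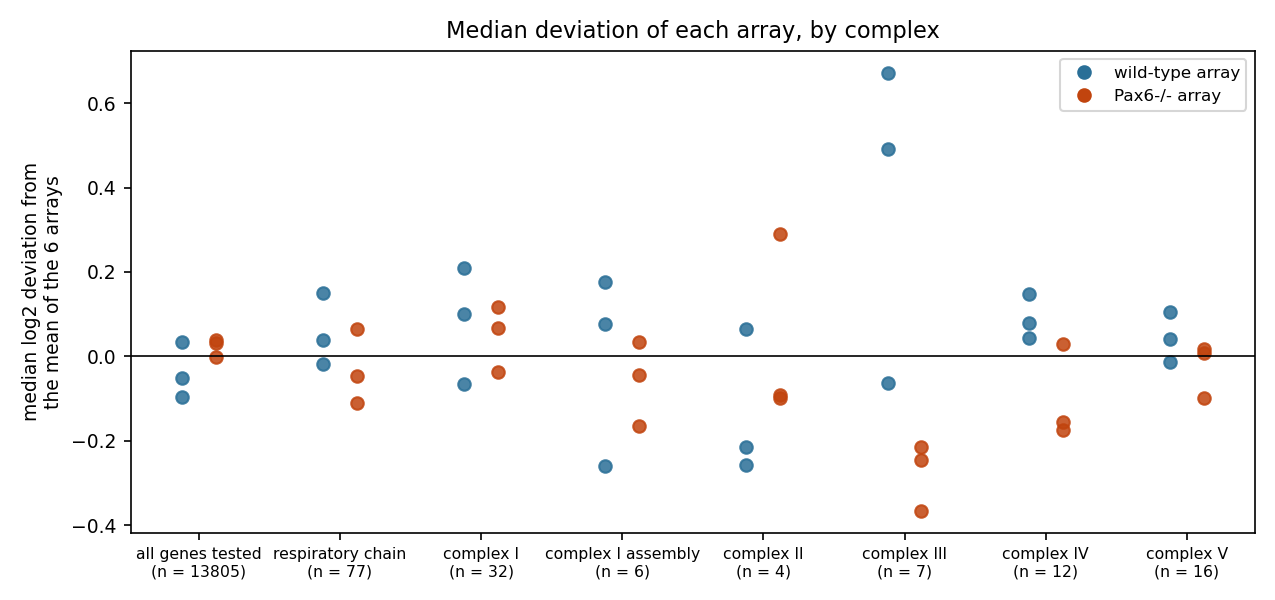
Median over the genes of a class of each array's log2 deviation from the gene's mean of the 6 arrays (vertical axis), for all genes tested, all members and each complex (horizontal axis, n genes), with wild-type arrays in blue and Pax6-/- arrays in orange. The complex III points run from 0.67 down to -0.37, while the complex V points stay between -0.10 and 0.11.

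How far the arrays of a genotype differed set what could be seen. The median SD within a genotype was 0.42 over the tested members and 0.57 over all genes, and 0.77 for complex I assembly factors. Brighter genes varied less. At a mean level of 9 or more the median SD was 0.23 in 35 members and 0.31 in 2172 genes, and below it 0.64 in 42 members and 0.65 in 11633 genes. All 6 arrays lay within 0.5 in 16 members (20.8%) and in 10.8% of all genes. Atp5l was the narrowest, from 11.50 to 11.70, followed by Ndufab1, Cox6c, Ndufa13 and Atp5j. In 19 members (24.7%) the arrays spanned more than 2, and in 38.7% of all genes. The standard error of the mean over beads had a median of 3.38% to 3.77% of the signal per array, over detected chain probes. It was taken on intensities before background correction, so it is not on the scale of the SD above.

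**Figure D5:**
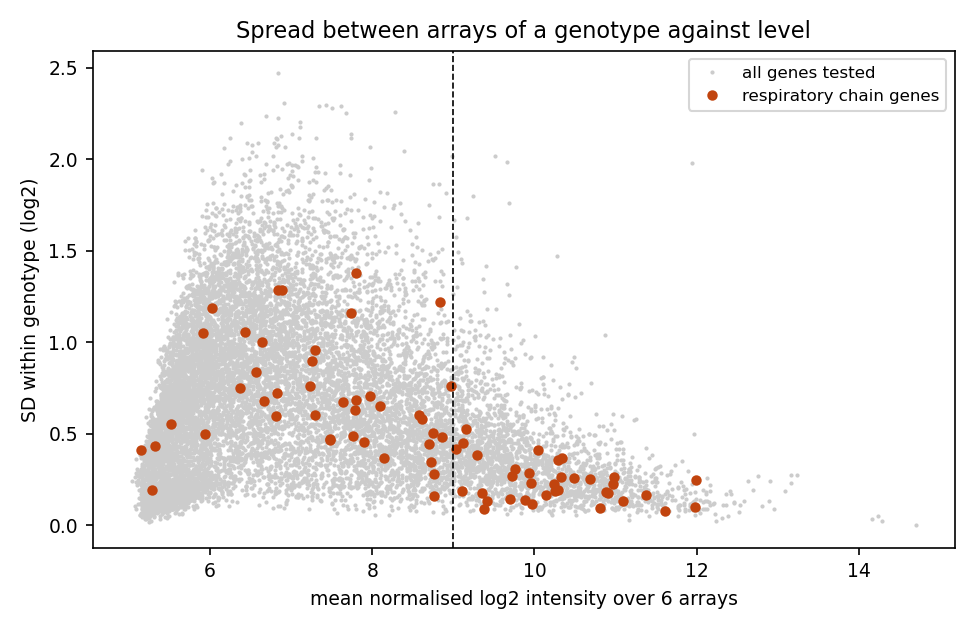
SD between arrays of a genotype (vertical axis, log2) against the mean normalised log2 intensity over the 6 arrays (horizontal axis), for all 13805 genes tested (grey) and the 77 members (orange), with the dashed line at 9. Members right of the line have a median SD of 0.23 and those left of it 0.64.

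Neighbouring mitochondrial genes, taken from lists fixed with earlier results of these data known, also had no member called in limma. Of 8 other genes tied to the chain, among them the cytochrome c1 gene Cyc1 (-0.44 ± 0.48), none had an unadjusted p under 0.05. Of 25 further assembly factors 1 (4%, beside 4.7% of all genes) was lower at that level. This was Cox17, a copper chaperone of complex IV (10.36, 10.04 and 9.86 against 9.45, 9.39 and 9.05, a change of -0.79 ± 0.25). In 3 of the 25 (12%) values were lower without overlap, beside 6.81% of all genes: Cox17, Coa3 (-0.52 ± 0.26) and Cox18. Cox18 read 5.41, 8.37 and 5.30 in the wild type and was above background on no Pax6-/- array (at least 2.18-fold lower, limma adjusted p = 0.733). For 65 genes of the mitochondrial ribosome 2 were lower and 4 higher at an unadjusted p under 0.05 (9.23%, beside 8.95% of all genes). Their median change was -0.03. The per-array means of the list ran from 7.83 to 7.98 in the wild type and from 7.79 to 7.93 in Pax6-/- tissue. Of 16 genes of the citric acid cycle and pyruvate dehydrogenase 0 passed that level, with a median change of 0.15.

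All 6 genes of the membrane carriers and channels had negative changes, with a median of -0.43, where 44.0% of all genes were below 0. In 4 of the 6 the genotypes did not overlap, beside 6.81% of all genes that were lower without overlap. Only 1 of the 6, Slc25a3, had an unadjusted p under 0.05, where 4.7% of all genes were lower. The list as a whole was not tested. Slc25a3, which carries the phosphate used by ATP synthase, read 7.61, 7.38 and 7.92 against 6.64, 6.83 and 6.41, without overlap (-1.01 ± 0.26, limma adjusted p = 0.301). The ADP/ATP exchangers Slc25a4 and Slc25a5 had -0.39 ± 0.22 and -0.47 ± 0.22, also without overlap. Among 13 genes of mitochondrial transcription and biogenesis 3 were lower and 0 higher at an unadjusted p of 0.05, beside 4.7% and 4.24% of all genes. In all, 8 of the 13 had changes below 0 and 5 above. The 3 were Gabpa, the DNA-binding subunit of GABP (7.51, 7.16 and 6.94 against 6.51, 5.42 and 6.07, a change of -1.20 ± 0.35, limma adjusted p = 0.367), Mterf3 (-1.15 ± 0.43) and Polg. Polg, the polymerase of mitochondrial DNA, was above background on no Pax6-/- array and at least 1.37-fold lower (limma adjusted p = 0.493). Nrf1 had -0.72 ± 0.56 and Tfam, which packages mitochondrial DNA, -0.29 ± 0.34. The 5 with positive changes were Twnk, the helicase of mitochondrial DNA (1.16 ± 0.73), Gabpb1, the partner subunit of Gabpa (0.46 ± 0.52), Mterf1a (0.43 ± 0.42), Myc (0.35 ± 0.27) and Tfb1m (0.25 ± 0.48). Of 3 antioxidant genes Prdx3, a mitochondrial peroxidase, was lower at that level (-1.62 ± 0.31, limma adjusted p = 0.177). Sod2 had -0.05 ± 0.31. Txn2, the mitochondrial thioredoxin, had 1.13 ± 0.59 with 1 wild-type and 2 Pax6-/- arrays above background (limma adjusted p = 0.665).

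Promoters were searched for letters known to bind these regulators, with sequences from RefSeq (GRCm38.p6, 250 bases before to 50 after the start site). A promoter was found for 70 of the 85 members. The searched letters were GCATGCG for NRF1, CCGGAAG for ETS factors such as GABP and AAGATGG for YY1, on both strands. Matches of different motifs overlapped in 6 of the 32851 promoters of the table and in 0 of the members'. The NRF1 letters were in 12 of the 70 member genes (17.1%), against 7.34% of 7490 tested named genes and 4.01% of all genes of the table. For ETS the shares were 25.7%, 20.2% and 9.93%, and for YY1 15.7%, 8.54% and 7.28%. The 70 include members that were not tested, unlike the 7490. Among tested members with a promoter 12 had the NRF1 letters and 53 did not. These counts were 18 and 47 for ETS and 11 and 54 for YY1. Tested members with the ETS letters had a median change of -0.12 (18 genes) and those without -0.14 (47 genes). For NRF1 the medians were 0.17 (12 genes) and -0.18 (53 genes), given as a description with no test. A match is only a run of letters and not a shown binding site.

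These 4 promoters show the letters in context, with matches in capitals. Ndufa1 and Ndufaf8 are shown as the members with the lowest p among those lower and higher in Pax6-/- tissue, and Atp5k and Atp5j as steady members with several matches. The Ndufa1 window (chrX:37191189-37191488, minus strand) holds none of the 3 motifs. That of Ndufaf8 (chr11:120098684-120098983, plus strand) holds ETS and then YY1 letters, and that of Atp5k (chr5:108434350-108434649, minus strand) NRF1 and then ETS. The Atp5j window (chr16:84834927-84835226, minus strand), from 1 of its 2 start sites in the table, holds NRF1, YY1 and ETS letters in that order. It lies where Atp5j overlaps the annotated start of Gabpa, so Atp5j (9.19 to 9.51 over the 6 arrays) and Gabpa share this stretch of chromosome 16.
Ndufa1: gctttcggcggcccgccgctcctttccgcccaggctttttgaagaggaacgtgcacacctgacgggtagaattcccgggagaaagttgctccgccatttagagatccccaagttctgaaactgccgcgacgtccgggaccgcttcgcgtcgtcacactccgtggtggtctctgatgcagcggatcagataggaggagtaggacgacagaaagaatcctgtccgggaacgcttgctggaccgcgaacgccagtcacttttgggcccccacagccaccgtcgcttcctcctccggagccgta
Ndufaf8: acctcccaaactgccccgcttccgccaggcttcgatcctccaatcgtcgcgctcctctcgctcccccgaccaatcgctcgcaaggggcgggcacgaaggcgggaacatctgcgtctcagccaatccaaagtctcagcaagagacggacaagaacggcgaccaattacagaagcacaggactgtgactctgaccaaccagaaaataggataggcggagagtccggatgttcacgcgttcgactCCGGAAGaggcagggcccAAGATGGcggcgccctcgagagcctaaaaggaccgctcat
Atp5k: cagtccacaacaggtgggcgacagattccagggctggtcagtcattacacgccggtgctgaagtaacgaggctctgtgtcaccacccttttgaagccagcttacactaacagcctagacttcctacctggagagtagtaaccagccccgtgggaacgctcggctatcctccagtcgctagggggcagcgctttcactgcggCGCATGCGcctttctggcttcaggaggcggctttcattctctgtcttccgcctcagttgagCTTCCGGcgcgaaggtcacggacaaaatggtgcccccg
Atp5j: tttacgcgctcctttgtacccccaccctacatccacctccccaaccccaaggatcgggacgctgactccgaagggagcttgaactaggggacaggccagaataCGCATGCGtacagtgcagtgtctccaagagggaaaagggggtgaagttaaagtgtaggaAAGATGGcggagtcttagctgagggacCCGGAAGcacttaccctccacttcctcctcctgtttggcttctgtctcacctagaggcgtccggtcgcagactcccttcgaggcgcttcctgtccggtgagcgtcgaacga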

How the data were processed

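The authors deposited a non-normalised table that holds, per the file headers, a mean intensity over beads for each probe, the standard error of that mean, the bead count per probe and a detection p-value from GenomeStudio, per the submitters' processing notes. A second table of the authors' processed intensity values, with scaling not given in the sources used here, served as an alternative. Symbols came from the platform annotation and matched RefSeq by gene identifier for all 85 members. Intensities were processed with neqc in limma 3.58.1 (R 4.3.3): normexp correction with the control distribution inferred from the deposited detection p-values, offset 16, quantile normalisation and log2. This shrinks changes of dim genes and hides a change in total RNA. After the detection filter 17751 probes remained. Pax6-/- and wild type were compared with lmFit and eBayes over all 13805 genes, without covariates, and second probes in a fit over all kept probes. The procedure was tested on simulated data. With 3 arrays per genotype an exact permutation test cannot go below 0.1.

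The members and all lists were chosen with earlier results of these data known. Members named by rule were those called, the 3 with the smallest p in each class, central subunits and tissue isoforms. The rule also took members detected in 1 genotype only and members whose probes differ in sign. Further members were named after their values were seen, among them Ndufb10, Ndufa9, Ndufs5, Ndufab1, Ndufa13, Cox6c and Atp5d. Embryos are the replicates. The motif letters were set after values were seen, shortened from longer forms. All 6 arrays lay on 1 slide, and no column was left unmapped. The median number of beads per probe was 37 on each array. Alternatives changed the normalisation, background correction, offset, table, filter, probe choice, variance model and arrays included.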

Additional observations from a re-analysis of the deposited data

How the results depend on the processing

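No chain gene was called under any of the 17 alternatives run in limma, where the lowest adjusted p of a member ran from 0.167 to 0.395. The number of all genes called was 12, and it was 7 with arrays scaled to a common median, 4 without background correction, 6 with an offset of 50, 20 with the authors' processed table, 3 without the detection filter, 0 over genes detected on all 6 arrays, 3 with a trended robust variance model and 0 to 2 when an array was left out. Of the called genes, 8 were lower and 4 higher, with 7 and 0 under median scaling, 10 and 1 under cyclic loess and 9 and 11 in the processed table. Members at an unadjusted p of 0.05 numbered 7 (9.09%, against 8.95% of all genes). They numbered 11 after median scaling (14.3% against 10.5%) and 3 to 10 when an array was left out. They were 4 without wild-type array 1 (5.19%, against 7.88% of all genes) and 3 without wild-type array 2 (3.90% against 8.08%). Without Pax6-/- array 3 there were 3 (3.90% against 8.42%), and without wild-type array 3 there were 10 (13.0% against 11.2%). Median scaling moved the members' median to -0.38. It shifted the median of all genes by -0.27, and the members' median minus that of all genes was -0.18 there, -0.16 in the values reported and -0.24 to -0.07 over the 17 alternatives. The fit with the replicate number as a block called 0 genes and left 3 members at an unadjusted p of 0.05 (3.90%, against 8.61% of all genes). Same-numbered arrays did not deviate together (correlations of 0.0053, 0.0022 and -0.017 over all genes), and they were treated as unpaired. They had neighbouring position letters on the slide (A and B, C and D, E and F). Whether they share a litter or a processing step was not tested, and neither was the cause of the lower counts.

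Of the 7 members at an unadjusted p of 0.05, Ndufa1 and Uqcrb stayed under it in 16 of 16 alternatives fitted per gene, Ndufa3 in 14, Ndufaf8 in 12, Ndufb3 in 11, Ndufa4 in 9 and Ndufb10 in 7. None of the 7 changed sign. Over 40 tested members named by rule, 39 of 638 values under the alternatives had another sign than the value reported, in 18 genes whose reported changes were at most 0.69 in size. The 3 arrays per genotype limit every value, and dim probes carry the least precise changes.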

Other observations

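Among the 3 tested members on the X chromosome, Ndufb11 and Cox7b had small changes of -0.14 ± 0.24 and -0.14 ± 0.22, beside the -1.58 of Ndufa1. Xist, the RNA that coats the inactive X chromosome in female mouse cells, read 10.44, 10.09 and 10.51 in the wild type and 5.74, 10.51 and 10.65 in Pax6-/- tissue, so Pax6-/- array 1 stood apart from the other 5. The sex of the embryos is not in the labels. Ndufa1 read 9.17 and 9.61 on the Pax6-/- arrays with high Xist and 9.72 on the array with low Xist, all below the lowest wild-type value of 10.60. Without Pax6-/- array 1 its change was -1.68 ± 0.37 (limma adjusted p = 0.327).

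Isoform genes of complex IV that were otherwise at background were seen on single arrays of both genotypes, each on 1 probe. Cox8c was at 7.04 on Pax6-/- array 3 and Cox7a1 at 5.88 on Pax6-/- array 1. Cox6b2 and Cox7b2 were above background on 1 wild-type array each, and both were highest on wild-type array 3 (5.43 and 5.36).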
